A study of Mus musculus with 4 samples.

Results

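Tubulin is the building block of microtubules, hollow filaments assembled from dimers of an alpha and a beta subunit. Mammals carry several genes for each subunit, called isotypes, whose proteins are nearly identical apart from a variable tail at the C terminus. In heart muscle cells, microtubules form a lattice around the nucleus and between the myofibrils, carry cargo for kinesin and dynein motors and add stiffness to the contracting cell. Denser and more detyrosinated microtubules are a known feature of pressure-overloaded and failing myocardium.

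Described here are 10 alpha- and beta-tubulin genes, Tuba1a, Tuba1b, Tuba1c, Tuba4a, Tuba8, Tubb2a, Tubb2b, Tubb4b, Tubb5 and Tubb6, chosen by the gene symbol that the platform annotation gives to a probe. Of these, 9 had a named probe, each a single probe among 23473 gene probes, and no probe carried the symbol Tuba1a, so that gene has no value. The genes were chosen with the higher values of Tuba8 and Tuba4a in the knockout already known, and their differences between the genotypes are therefore given as a description. RNA came from ventricle muscle of male mice of strain 129SV, with 2 wild-type samples and 2 samples in which Trpc6 was deleted (Trpc6-/-), each read on 1 array in 1 colour. Trpc6 encodes a calcium-permeable cation channel. The labels give no age, no treatment and no design of the deleted allele, and do not say whether the samples of a group came from separate animals, so the spread between samples may be technical.

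Each probe was read as a spot median, the median pixel intensity of its spot in scanner units, and counted as above background on an array where this exceeded the 95th percentile of the blank and negative control spots. That limit was 80.8 and 91.5 units in wild type against 85.5 and 83.3 units in the knockout, and 76.3% to 83.2% of all gene probes exceeded it. The Trpc6 probe read 80.5 and 89.2 units in wild type against 84.1 and 82.6 units in the knockout, below the limit on all 4 arrays, so that it could not check the labels. All 10 cardiomyocyte markers, among them Myh6 and Tnnt2, were above background on every array. Of 8 skeletal muscle fibre probes, 3 (Myh1, Myh2 and Myh4) were below it on every array. Another 3 (Myl1, Mylpf and Tnni2) were above it on every array, and Actn3 and Tnnt3 on 2 arrays each. Myl1 read 345 and 204 units in wild type against 246 and 255 units in the knockout. The limma test of all 15955 genes left 0 with an adjusted p under 0.05. At an unadjusted p under 0.05, 585 genes (3.67%) lay higher in the knockout and 491 (3.08%) lower. These numbers were 397 and 676 with median scaling and 200 and 437 in the authors' table. They were 1141 and 1201 without the first wild-type array, and 249 and 194 without the second knockout array.

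All 9 measured members were above background on all 4 arrays. The member closest to the limit was Tubb2b, at 95.8 units against 80.8 on the first wild-type array. Detection did not separate the members from the other tubulin genes, since 10 further tubulin genes with a probe were also above background on every array, the closest to its limit being Tubb1 at 88.4 units against a limit of 85.5 on the first knockout array. Levels are not set against each other between genes, because each probe has its own brightness.

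**Figure D1:**
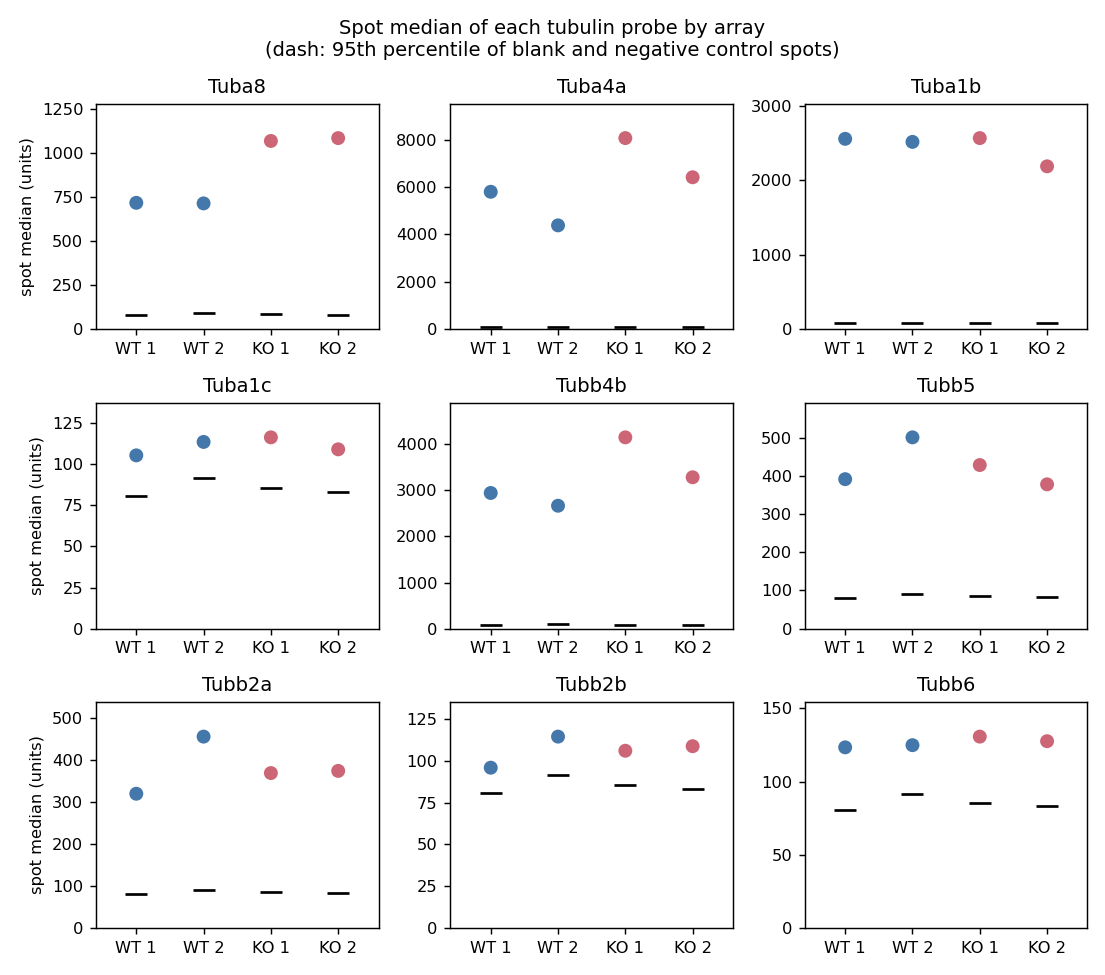
Spot medians in scanner units (vertical axis, each panel with its own scale from 0) of the 9 tubulin probes on the wild-type (WT, blue) and Trpc6-/- (KO, red) arrays; the dash is the background limit of that array. Tuba8, Tuba4a and Tubb4b are higher on both knockout arrays than on both wild-type arrays, and Tuba1c and Tubb2b lie close above the limit.

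Among the alpha-tubulins, Tuba8 and Tuba4a separated the genotypes most widely before any subtraction of local background. TUBA8 is a divergent alpha isotype, found in mice mainly in heart, skeletal muscle and testis. Its spot median was 719 and 716 units in wild type against 1071 and 1087 units in the knockout. Both knockout arrays were higher, and the arrays of each genotype lay close together. After correction and quantile normalization the log2 intensities were 9.46 and 9.31 in wild type against 10.07 and 10.09 in the knockout, a difference of 0.69 ± 0.06 (limma standard error, n = 2 per group) or 1.61-fold. In the authors' deposited table the values were 629 and 507 units in wild type against 939 and 1029 units in the knockout, a ratio of means of 1.73. The difference was between 0.62 and 0.76 with any 1 array left out and 0.14 when local background was subtracted.

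Tuba4a, which encodes an alpha isotype made without the C-terminal tyrosine that most alpha-tubulins carry, was bright on all arrays. Its spot median was 5801 and 4385 units in wild type against 8064 and 6413 units in the knockout. Again both knockout arrays were higher, but the highest wild-type and the lowest knockout array were near each other. The log2 intensities were 12.50 and 11.97 against 12.99 and 12.73, a difference of 0.62 ± 0.20 (n = 2 per group), or 1.54-fold. The second wild-type array weighed on this value, which was 0.36 without that array and 0.88 without the first wild-type array, and it turned to -0.38 when local background was subtracted. The authors' values were 5620 and 3466 units in wild type against 7584 and 6479 units in the knockout.

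Tuba1b, a widely expressed alpha isotype, did not separate the genotypes. It read 2555 and 2514 units in wild type against 2565 and 2186 units in the knockout, and the groups overlapped. On the log2 scale it was at 11.35 and 11.14 against 11.31 and 11.18, a difference of -0.0030 ± 0.09 (n = 2 per group) that was -0.11 without the second and 0.10 without the first wild-type array, and was 0.97 when local background was subtracted. With so few arrays this does not show that Tuba1b was equal in the genotypes. Tuba1c, a close relative, was dim, at 105 and 114 units in wild type against 116 and 109 units in the knockout. Its raw values overlapped and its normalized values did not, at 6.32 and 6.26 against 6.49 and 6.35, a difference of 0.13 ± 0.06. Tuba1a, the main alpha isotype of developing neurons, lies between Tuba1b and Tuba1c on chromosome 15.

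Among the beta-tubulins, Tubb4b was higher on both knockout arrays. TUBB4B is a broadly expressed beta isotype that is also built into cilia. Its spot median was 2943 and 2666 units in wild type against 4150 and 3284 units in the knockout. The first knockout array was highest, as for Tuba4a. The log2 intensities were 11.54 and 11.23 against 12.00 and 11.75, a difference of 0.49 ± 0.14 (n = 2 per group) or 1.40-fold, of 0.34 to 0.64 with any 1 array left out and of 0.20 when local background was subtracted. The array also holds a probe annotated to Tubb4b-ps1, a pseudogene of Tubb4b, which was looked up after the value of Tubb4b was known. This probe read 360 and 383 units in wild type against 460 and 475 units in the knockout, a log2 difference of 0.45 ± 0.04 (n = 2 per group). The probe sequences were not used here, so signal from the pseudogene and from Tubb4b, or from other isotypes of like coding sequence, cannot be told apart.

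Of the remaining beta isotypes, Tubb5 and Tubb2a overlapped between the genotypes. Tubb5, the most widespread beta isotype, read 391 and 501 units in wild type against 428 and 378 units in the knockout, with a log2 difference of -0.06 ± 0.11. It was 0.06 without the second wild-type array and turned to 0.41 when local background was subtracted, above the 0.20 of Tubb4b under that setting. Tubb2a, known as a neuronal isotype, read 320 and 456 units in wild type against 369 and 374 units in the knockout, so that both knockout arrays fell between the wild-type arrays. Its log2 difference was 0.05 ± 0.15, and it was -0.16 without the first and 0.27 without the second wild-type array. Its neighbour Tubb2b, also neuronal, was dim, at 95.8 and 114 units in wild type against 106 and 109 units in the knockout. The raw values of Tubb2b overlapped and its normalized values did not, at 6.13 and 6.28 against 6.29 and 6.35, a log2 difference of 0.12 ± 0.06. Tubb6, a beta isotype raised in dystrophic muscle of mice, read 123 and 125 units in wild type against 131 and 128 units in the knockout. Its log2 intensities were 6.61 and 6.45 against 6.71 and 6.66, a difference of 0.16 ± 0.07 (n = 2 per group).

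Over the family, 7 of the 9 measured members had a higher mean in the knockout, as did 51.1% of all genes tested. The normalized groups did not overlap in 6 members (Tuba8, Tuba4a, Tubb4b, Tubb6, Tuba1c and Tubb2b), all of them higher in the knockout, where 19.4% of all genes were higher and 17.4% lower without overlap. The raw spot medians of Tuba1c and Tubb2b overlapped. Subtraction of local background turned the sign of 5 members. Tuba4a went to -0.38, Tuba1c to -0.13 and Tubb6 to -0.0082, while Tubb5 went to 0.41 and Tuba1b to 0.97. Because the members were chosen with this contrast known, nothing is read from these counts. The median log2 difference was 0.13 over the 9 members and 0.0017 over all genes tested. No member had a limma adjusted p under 0.05, the smallest being 0.727, and 3 members (Tuba8, Tubb4b and Tuba4a) had an unadjusted p under 0.05 by limma, all higher, as had 3.67% of all genes in that direction. In the authors' deposited table, which has no offset, the ratios of the knockout to the wild-type mean were larger for the dim members, 1.27 for Tuba1c, 1.30 for Tubb2b and 1.25 for Tubb6, against fold changes of 1.10, 1.08 and 1.12 with the offset.

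**Figure D2:**
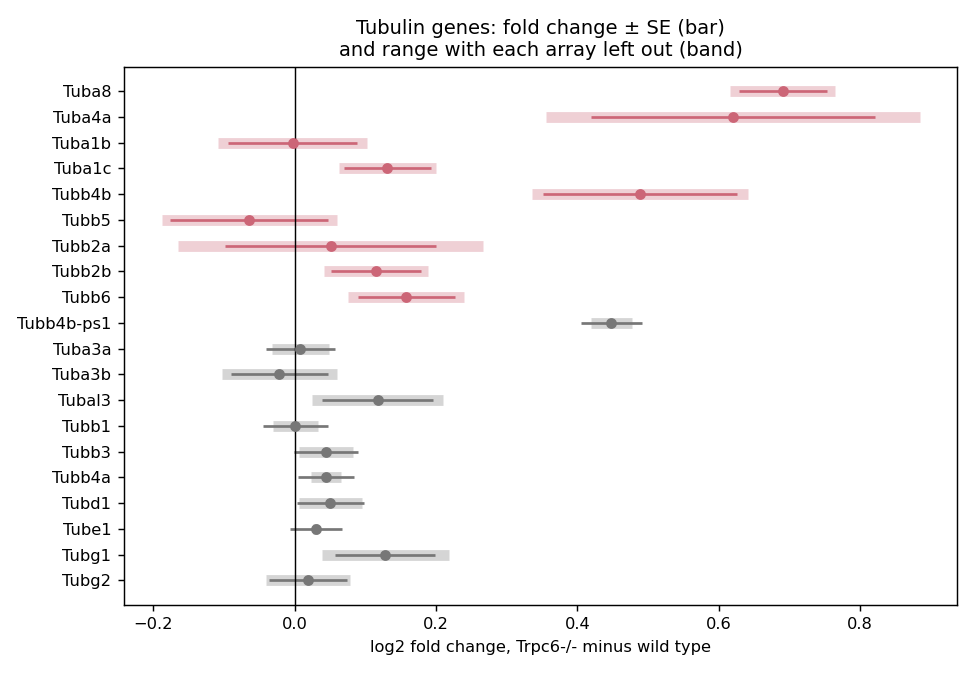
Log2 fold change, knockout minus wild type (horizontal axis), of the 9 members (red) and of other tubulin probes (grey), with limma standard errors as bars and the range with each array left out as bands. Tuba8, Tuba4a, Tubb4b and Tubb4b-ps1 lie between 0.45 and 0.69, and the other tubulin probes between -0.06 and 0.16.

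The difference of the bright members depended on the treatment of the local background, the median intensity around each spot. Around the Tuba4a spot it was 3925 and 1540 units in wild type against 6953 and 3867 units in the knockout. The surroundings were thus bright beside the spot itself. The spot was only 1.16 times as bright as its surroundings on the first knockout array, and 2.85 times on the second wild-type array. Around Tuba8 it was 223 and 171 units in wild type against 556 and 503 units in the knockout, and around Tubb4b 548 and 469 units against 1120 and 1207 units. The surroundings of Tuba8 and Tubb4b were thus brighter on both knockout arrays, as the spots themselves were, while those of Tuba4a overlapped between the genotypes. Around Tuba1b it fell the other way, with 1706 and 1521 units in wild type against 210 and 987 units in the knockout, while the spot medians overlapped. With local background subtracted, the log2 difference of Tuba8 was 0.14, of Tubb4b 0.20, of Tuba4a -0.38 and of Tuba1b 0.97. Over all gene spots, log2 local background and log2 spot median had correlations of 0.928 to 0.965 on the 4 arrays, a description of these arrays with spots as points. The part of the surroundings in these differences was not tested.

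**Figure D3:**
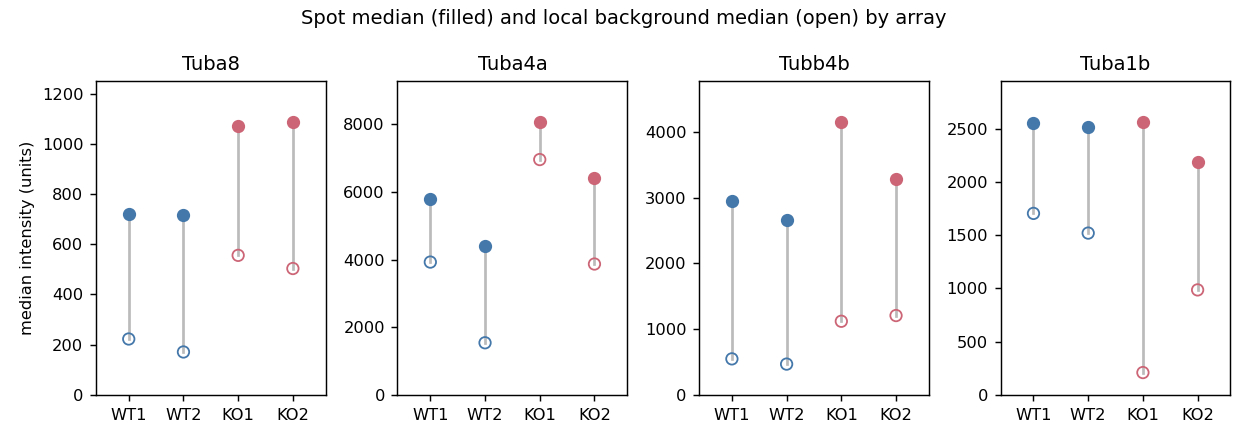
Spot median (filled) and local background median (open), in scanner units from 0, of Tuba8, Tuba4a, Tubb4b and Tuba1b on each array (WT, wild type; KO, Trpc6-/-). Around Tuba8 and Tubb4b the open symbols are higher on both knockout arrays, like the filled ones, and around Tuba1b they are lower on both and read 210 to 1706 units at a spot median of 2186 to 2565 units.

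**Figure D4:**
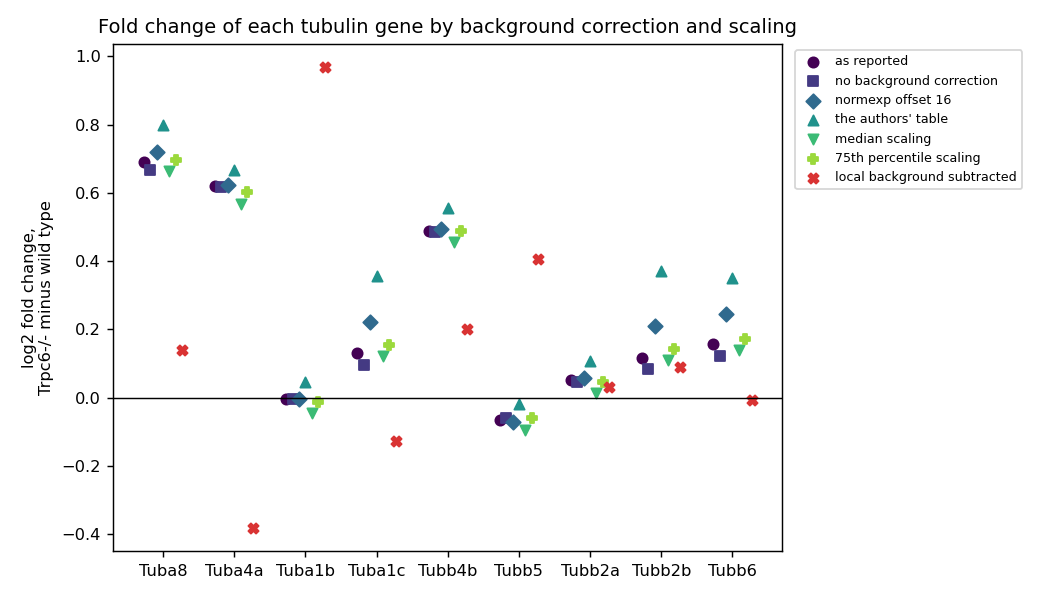
Log2 fold change, knockout minus wild type (vertical axis), of the 9 members under 7 ways of background correction and scaling. Subtraction of the local background (red crosses) turned the difference of Tuba4a to -0.38 and brought that of Tuba8 to 0.14 in place of 0.62 and 0.69.

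The promoters of the members differed in the motifs they hold. RefSeq promoter windows on build GRCm38.p6 were found for 8 of the 10 members. The 250 bases before the annotated start are printed for Tuba8, Tuba4a and Tubb4b, the members that differed most before subtraction of local background. They are also printed for Tuba1b, which overlapped between the genotypes in that setting. With local background subtracted, Tuba4a was at -0.38 and Tuba1b at 0.97. Each printed sequence runs 5′ to 3′ on the strand of the gene and ends next to the start. Capitals mark matches on either strand to the CCAAT box (CCAAT), the GC box (GGGCGG) and the TATA box (TATAAA).
Tuba8, chr6:121210484-121210733, plus strand: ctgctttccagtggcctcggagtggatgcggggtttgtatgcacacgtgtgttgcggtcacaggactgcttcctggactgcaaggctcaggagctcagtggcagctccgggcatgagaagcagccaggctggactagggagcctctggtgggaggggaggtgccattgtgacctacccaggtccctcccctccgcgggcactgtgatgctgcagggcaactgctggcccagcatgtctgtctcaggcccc
Tuba4a, chr1:75219295-75219544, minus strand: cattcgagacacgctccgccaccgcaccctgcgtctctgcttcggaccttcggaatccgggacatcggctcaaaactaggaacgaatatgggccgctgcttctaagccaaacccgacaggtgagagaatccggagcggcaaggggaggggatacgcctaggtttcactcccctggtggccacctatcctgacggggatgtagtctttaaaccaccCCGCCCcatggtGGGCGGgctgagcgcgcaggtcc
Tubb4b, chr2:25224703-25224952, minus strand: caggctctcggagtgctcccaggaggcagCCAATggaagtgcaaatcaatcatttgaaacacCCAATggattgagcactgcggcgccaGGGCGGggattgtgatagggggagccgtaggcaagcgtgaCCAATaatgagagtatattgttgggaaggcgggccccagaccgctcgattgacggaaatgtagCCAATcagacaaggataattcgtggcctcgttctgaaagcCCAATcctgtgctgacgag
Tuba1b, chr15:98934391-98934640, minus strand: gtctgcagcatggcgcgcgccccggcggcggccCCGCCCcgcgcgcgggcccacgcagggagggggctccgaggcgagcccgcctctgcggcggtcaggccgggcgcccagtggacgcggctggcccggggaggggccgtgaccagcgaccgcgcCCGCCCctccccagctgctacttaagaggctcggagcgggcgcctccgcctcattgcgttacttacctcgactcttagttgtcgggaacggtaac

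Tubb4b held 5 matches to the CCAAT box, which binds the factor NF-Y, while Tuba8, Tuba4a and Tuba1b held 0, and 33.8% of 32851 promoter windows of this length held at least 1. The GC box, which binds Sp factors, had 2 matches in Tuba4a, 2 in Tuba1b, 1 in Tubb4b and 0 in Tuba8, and was found in 32.7% of windows. Among the 8 members only Tubb2a, which did not separate the genotypes, had a TATA box, at 29 bases before the start, against 12.4% of windows. The E-box (CANNTG), bound by helix-loop-helix factors, had 2 matches in Tuba8 and 1 in each of the other 7 members, and was found in 66.2% of windows. The NFAT core (GGAAA) was looked for because calcium entry through TRPC channels is known to feed calcineurin and NFAT. It had 1 match each in Tuba8, Tubb4b, Tubb2a and Tuba1a, 2 in Tuba1c and 0 in Tuba4a, Tuba1b and Tubb5, and was found in 55.6% of windows. The MCAT element (CATTCC) had 1 match, in Tubb5, against 12.6% of windows, and the MEF2 site and the CArG box had 0 in all 8 members, against 2.92% and 1.47%. Matches to letters are not binding sites, and their absence from this window says nothing of the factors.

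Genes next to the members on the chromosome were looked up after the values of the members were known. Stk16, a protein kinase gene beside Tuba4a, was at 7.77 and 7.90 in wild type against 7.96 and 7.98 in the knockout, a log2 difference of 0.13 ± 0.06. Pex26 and Usp18 on either side of Tuba8 were at -0.05 ± 0.07 and 0.08 ± 0.06, and both overlapped between the genotypes. Flot1 beside Tubb5 was at 8.55 and 8.67 in wild type against 8.42 and 8.38 in the knockout. It was lower without overlap by 0.21 on the log2 scale, where 17.4% of all genes tested were lower without overlap. Mdc1 on the other side of Tubb5 was at -0.03 ± 0.05 and Slc34a3 beside Tubb4b at -0.02 ± 0.04, and both overlapped. Lmbr1l, Prph, Bphl, Cidea and Afg3l2, beside other members, overlapped as well.

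The other 10 tubulin genes were dim. Of these, 9 had a higher mean in the knockout, where 51.1% of all genes tested did. None had an adjusted or an unadjusted p under 0.05 by limma, and their median log2 difference was 0.037. That median was 0.12 in the authors' table, which has no offset, and -0.0096 with local background subtracted. Tubb3, the beta isotype of neurons, read 105 and 116 units in wild type against 107 and 112 units in the knockout. Tubb1, the beta isotype of platelets and megakaryocytes, read 84.9 and 97.4 units against 88.4 and 89.6 units. Their log2 differences were 0.04 ± 0.04 and 0.00074 ± 0.05. Tubb4a and Tubal3 were at 0.04 ± 0.04 and 0.12 ± 0.08, and the alpha isotypes Tuba3a and Tuba3b, known from testis, at 0.01 ± 0.05 and -0.02 ± 0.07. The gamma-tubulins, which start new microtubules, were at 0.13 ± 0.07 for Tubg1 and 0.02 ± 0.05 for Tubg2. Tubd1 and Tube1, the delta- and epsilon-tubulins of centrioles, were at 0.05 ± 0.05 and 0.03 ± 0.04.

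Genes that fold tubulin did not shift together. Of 21 measured chaperonin subunits, prefoldins and tubulin cofactors, 12 were higher and 9 lower, with a median of 0.010, where 51.1% of all genes tested were higher. An unadjusted limma p under 0.05 was found for 1 in each direction, as for 3.67% of all genes tested higher and 3.08% lower. An adjusted p under 0.05 was found for 0. Tbcb, a cofactor that captures alpha-tubulin, was at 8.73 and 8.57 in wild type against 8.86 and 8.83 in the knockout, a difference of 0.20 ± 0.07. Both knockout arrays were higher, but the difference turned to -0.76 with local background subtracted. Tbca, which holds beta-tubulin, was at 0.01 ± 0.10 and at -1.69 with local background subtracted. Tbcd, which helps to join the subunits, was at 0.07 ± 0.07. Of 41 related genes named here, Tubb4b-ps1 included, 25 turned sign under that subtraction. Ttc5, which recognises nascent tubulin at the ribosome and starts the decay of tubulin mRNA when free tubulin is in excess, was at 6.20 and 6.24 against 6.32 and 6.30, a difference of 0.09 ± 0.04.

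Enzymes that modify tubulin tails went both ways. Of 24 measured, 12 were higher and 12 lower, 0 had an adjusted or an unadjusted p under 0.05 by limma, and the median was -0.0041. Ttl, the ligase that puts the C-terminal tyrosine back on alpha-tubulin, was at 6.90 and 7.03 in wild type against 6.92 and 6.84 in the knockout, with overlapping groups. Svbp, the partner of the vasohibins that remove this tyrosine, was at 0.04 ± 0.11. Atat1, the alpha-tubulin acetyltransferase, was at -0.06 ± 0.04, and the deacetylase Hdac6 at 0.07 ± 0.05. Agbl5, a carboxypeptidase that trims glutamate chains, was at -0.01 ± 0.04. Ttll1, which adds glutamate chains, was at 9.50 and 9.92 in wild type against 9.38 and 9.33 in the knockout, a difference of -0.35 ± 0.15 that was -0.14 without the second wild-type array.

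Of 40 microtubule-associated proteins measured, 19 were higher and 21 lower, with 0 past the adjusted limma test. An unadjusted limma p under 0.05 was found for 1, lower, as for 3.08% of all genes tested in that direction. Map4, the main associated protein of muscle microtubules, was at 8.76 and 8.54 in wild type against 8.84 and 8.66 in the knockout, with overlapping groups. Stmn1, which sequesters tubulin dimers, was at 0.09 ± 0.06, and the end-binding proteins Mapre1 and Mapre3 were at 0.03 ± 0.07 and 0.01 ± 0.04. Clip1 and Macf1, which link microtubule ends to cargo and to actin, were at -0.06 ± 0.09 and -0.04 ± 0.09, and Map1s was at 0.02 ± 0.05. Tacc2, a centrosome-associated protein, had a difference of 0.31 ± 0.17, with wild-type arrays at 9.25 and 9.71 and knockout arrays at 9.70 and 9.88 that overlapped.

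Of 27 kinesin, dynein and dynactin genes 14 were higher and 13 lower. The unadjusted limma p was under 0.05 for 1 gene in each direction, as for 3.67% of all genes tested higher and 3.08% lower. Of these motor genes 0 passed the adjusted test. Dync1h1, the heavy chain of cytoplasmic dynein, was at 10.89 and 10.94 in wild type against 11.02 and 11.03 in the knockout, a difference of 0.11 ± 0.04 that was 1.66 with local background subtracted. Kif5b and Klc1 of conventional kinesin were at -0.07 ± 0.10 and 0.10 ± 0.08, and Dctn1 of dynactin at 0.02 ± 0.05. Among 5 severing genes 1 was higher and 4 lower, and Katna1 and Spast were at 0.12 ± 0.05 and -0.18 ± 0.09. Among 9 nucleation genes 3 were higher and 6 lower, and Tubgcp2 and Pcnt were at -0.11 ± 0.07 and -0.01 ± 0.04. Of 8 genes of intermediate filaments and their partners, 2 were higher and 6 lower. They include desmin, whose filaments anchor microtubules at the Z-disc, the linker Plec, the nuclear lamin Lmna and the small heat shock chaperone Cryab. Desmin (Des) was at 10.42 and 10.50 in wild type against 10.21 and 10.53 in the knockout, vimentin (Vim) at -0.03 ± 0.13, Synm at -0.04 ± 0.04 and Cryab at -0.11 ± 0.10. With local background subtracted, Des turned to 0.69 and Vim to 0.49. None of these severing, nucleation and filament genes had an unadjusted p under 0.05 by limma.

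**Figure D5:**
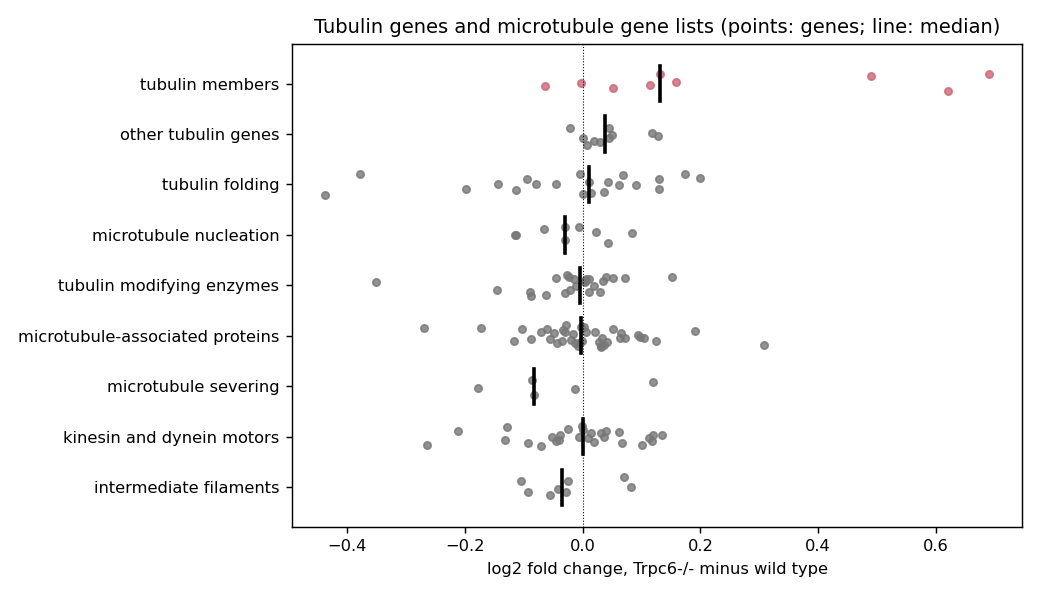
Log2 fold change, knockout minus wild type (horizontal axis), of each gene tested (points, spread vertically at random) in the tubulin family and in 8 lists of related genes, with the median as a line. The median is 0.13 for the members and between -0.08 and 0.04 for the other lists.

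The genes whose profile over the 4 arrays was nearest to Tuba8, by Euclidean distance of log2 values centred per gene and among 14940 named genes, were Perp, a desmosomal membrane protein, at 0.18, Ankrd9 at 0.23 and Spen, a transcriptional corepressor, also at 0.23. Perp was at 9.07 and 9.02 in wild type against 9.86 and 9.93 in the knockout. The nearest to Tuba4a were Alas1, the first enzyme of haem synthesis, at 0.25, Acta1, skeletal alpha-actin, at 0.26 and S1pr1, a receptor of sphingosine 1-phosphate, at 0.30. Acta1 was at 11.28 and 10.93 in wild type against 12.09 and 11.54 in the knockout. Like Tuba4a, it was highest on the first knockout and lowest on the second wild-type array. These genes were picked for such likeness over the same 4 arrays, so it is not a further result.

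Markers of some other cell types differed between the arrays. In bulk RNA, fewer cells of a type and less RNA per cell cannot be told apart. For each cell type, the intensities above blank of its probes were multiplied by the scale of that array in the authors' table and summed, a choice made after the unscaled sums had been seen. The sum of 6 erythroid probes was 930 and 2436 units in wild type against 3178 and 3456 units in the knockout, lowest on the first wild-type array, with Slc4a1 at background on all arrays. All 5 erythroid genes tested were higher without overlap, as were 19.4% of all genes tested. The globin genes among them shared a low first wild-type array, so the count does not stand for 5 separate results. Hba-a2 was at 8.73 and 10.17 in wild type against 10.45 and 10.50 in the knockout on the log2 scale.

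The sum of 6 fibroblast probes was 3816 and 3261 units in wild type against 3057 and 2697 units in the knockout. Of this, 71.0% came from Dcn, a proteoglycan of the matrix, and without Dcn the sums overlapped, at 1106 and 770 against 877 and 973 units. Of the 6 fibroblast genes, 2 were higher, Col1a1 and Col1a2, at log2 differences of 0.05 and 0.04. The other 4 were lower, Dcn at -0.47, Tcf21 at -0.23, Lum at -0.05 and Pdgfra at -0.03, and only Dcn without overlap. The 6 neutrophil probes summed to 210 and 216 against 129 and 108 units, of which Ly6g gave 77.1%. Without Ly6g they summed to 42.4 and 40.3 against 30.3 and 39.0 units. Of 5 neutrophil genes tested, 1 was higher, S100a8 at 0.02. The other 4 were lower, Ly6g at -0.75, S100a9 at -0.08, Retnlg at -0.06 and Camp at -0.02. Without overlap 3 were lower, where 17.4% of all genes tested were. Sums of 4 atrial probes, at 142 and 198 against 125 and 126 units, overlapped without Bmp10. Those of 5 proliferation probes, at 162 and 180 against 154 and 136 units, came to 79.8% from Aurkb, and without it turned to 31.4 and 23.0 against 33.0 and 40.2 units.

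The scaled sums overlapped between the genotypes for the remaining types. They were 1197 and 1075 units in wild type against 967 and 1122 units in the knockout for 7 endothelial probes, and 899 and 835 against 850 and 806 units for 7 smooth muscle and pericyte probes. For 7 neuronal and glial probes they were 174 and 157 against 158 and 168 units, with Syt1 at background on all arrays. They also overlapped for 11 cardiomyocyte probes, at 245524 to 258544 units, and for the platelet and megakaryocyte, macrophage, lymphocyte, skeletal muscle fibre, adipocyte and mesothelial probes. Without their brightest gene, sums were lower on both knockout arrays for smooth muscle and pericyte probes (without Kcnj8), at 551 and 559 against 539 and 502 units, and for platelet and megakaryocyte probes (without Pf4), at 114 and 107 against 94.9 and 99.7 units. The part of these cell types in the differences of Tuba8, Tuba4a and Tubb4b was not tested.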

How the data were processed

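Per the labels' protocols, total RNA was amplified with amino allyl nucleotides, coupled to Cy5 and hybridised to Toray arrays. Per the file headers, the deposited scanner files give spot and local background medians as linear intensity, with lines fitted between scanner gains. The joining of the gains is not given in the sources used. The authors' deposited table holds linear intensity with a constant of 78.4 to 87.7 units subtracted per array, scaled to a median of 25, found by setting it against the spot medians.

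Spot medians were corrected by normexp (offset 50, all spots, no local background) in limma 3.58.1 under R 4.3.3 and quantile normalized as log2 values. Probes above background on at least 2 arrays were kept (19117), of which 16999 had a gene symbol. The brightest of those with a symbol stood for a gene, which left 15955 genes. Groups were compared with lmFit and eBayes (2 residual and 2.49 prior degrees of freedom), with Benjamini-Hochberg adjustment over all genes; 2 against 2 arrays allow an exact permutation p of 0.333 at the lowest. The offset shrinks differences of dim probes.

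The members and gene lists were chosen with earlier results of these data known. Named were all members, the other tubulin genes, preset genes of the related lists where measured (Vash1 and Tcp1 had no named probe, Vash2 was not kept) and the 3 nearest profiles to Tuba8 and Tuba4a. Alternatives changed background, scaling, filter, value source (the authors' table, floor 2.3), probe choice and variance model, added the replicate number, or left out an array. Sequences and neighbours came from RefSeq tables of GRCm38.p6.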

Additional observations from a re-analysis of the deposited data

How the results depend on the processing

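Over 16 alternatives, Tuba8, Tubb4b and Tubb2b kept a higher mean in the knockout in each. Local background subtraction turned the sign of 5 members, Tuba4a to -0.38, Tuba1c to -0.13, Tubb6 to -0.0082, Tubb5 to 0.41 and Tuba1b to 0.97 on the log2 scale, and of 25 of 41 related genes named above; the cause was not tested. The count of members with a higher mean was 6 to 9 of 9, and of genes with an adjusted p under 0.05 it was 0 in every alternative run. In the authors' table the median log2 difference of the members was 0.36 and 200 genes were higher at an unadjusted p under 0.05; cells of dim probes are emptied there and no offset is added. With 1 array left out, 249 to 1141 genes were higher and 194 to 1201 lower, where the lone array is assumed to vary like the other group. With the replicate number as a block, 628 genes were higher and 520 lower at an unadjusted p under 0.05, and 0 had an adjusted p under 0.05. In this balanced layout the block leaves every difference as it was by construction. Deviations of same-numbered arrays correlated at 0.097 across genes, and the labels state no pairing. Of those related genes, 10 kept their sign in all alternatives. Slide and scan date as a block were not run, because the files used here give neither. With 2 arrays per group, differences of dim probes such as Tuba1c and Tubb2b are limited by signal close to background.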
